A study of Mus musculus with 6 samples.

Results

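Natural killer (NK) cells change their surface proteins as they mature, and 9 genes for such proteins are described here: Cd27, Itgam, Klrg1, Kit, Spn, Itga1, Itga2, Ly6c2 and Thy1. They were chosen by name as markers of maturation stage, with earlier results of these data known. Each matched 1 of the 37991 Ensembl genes in the deposited count tables. All 9 passed the filter on low counts, among 11724 genes that did. RNA was sequenced from mouse spleen NK cells sorted as carrying both CD27 and CD11b, on the C57BL6 background. There were 3 wildtype libraries and 3 labelled Rroid deficient, Rroid being a noncoding transcript of a regulatory element near Id2. The labels give no allele design, age, sex, treatment or number of mice per library, so the spread behind each p-value is that between these libraries and may be technical.

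Mouse NK cells that leave the precursor stage first carry CD27 without CD11b, then both, and finally CD11b without CD27. KIT and THY1 are found on immature lymphoid cells, and CD49b, the product of Itga2, appears as NK cells are established. CD43, the product of Spn, together with KLRG1 and Ly6C, appears on the more mature cells, whereas CD49a, the product of Itga1, marks tissue-resident group 1 innate lymphoid cells (ILC1). The sort required 2 of these proteins, CD27 and CD11b, at the cell surface. The comparison asked where inside that gate the RNA of each genotype lay.

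Libraries held 5823626 to 9216430 reads assigned to genes. Values are CPM, counts scaled to a common library size by TMM, and changes are Rroid-deficient against wildtype. Wildtype replicate 1 and deficient replicate 1 stood apart, with 5.63% and 5.57% of tested genes at a count of 0, against 0.23% to 2.43% in the other libraries. Id2, an inhibitor of E protein transcription factors, was at 338 to 468 CPM in wildtype and 38.9 to 81.2 CPM in deficient libraries, without overlap; the Rroid transcript itself was not analysed here. All 10 NK cell markers examined had reads in every library, and the sum of their CPM was 9600 to 11921 in wildtype and 9376 to 10047 in deficient libraries. Among them, Eomes was at 627 ± 160 CPM in wildtype and 474 ± 60.6 CPM in deficient libraries (log2 fold change -0.40, SE 0.21). Ncr1 was at 1015 ± 8.66 and 940 ± 61.5 CPM, and both genes overlapped between genotypes. Of the 10 markers, 3 lay lower in every deficient library (Klrb1c, Klrk1 and Klrd1) and 0 lay higher. Over all tested genes, 6.33% lay lower and 6.03% higher in this way. Klrd1 was at 553 ± 11.5 CPM in wildtype and 456 ± 28.4 CPM in deficient libraries. These were bulk libraries, in which fewer cells of a type and less RNA per cell cannot be told apart.

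Kit and Ly6c2 RNA lay higher, and Klrg1 RNA lower, in every deficient library than in every wildtype library, while the other 6 marker genes overlapped between genotypes. In edgeR's quasi-likelihood test, adjusted over all tested genes by the Benjamini-Hochberg method, none of the 9 passed, where 2 of 11724 genes, 0.0171%, were called in either direction. At an unadjusted p under 0.05 there were 3 of the 9, against 5.29% of all tested genes. Genes whose libraries did not overlap made up 12.4% of all tested genes, and Kit, Ly6c2 and Klrg1 make 33.3% of these 9. Because the 9 were chosen with earlier results of these data known, such shares are a description only. Without the wildtype and deficient replicates 1, the members whose libraries did not overlap numbered 4 (44.4%), Cd27 being added as higher, against 37.5% of all tested genes. Among the 9 marker genes, 4 had a positive log2 fold change (51.6% of all tested genes did) and 5 a negative one, with a median of -0.20 beside 0.02 over all tested genes.

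**Figure D1:**
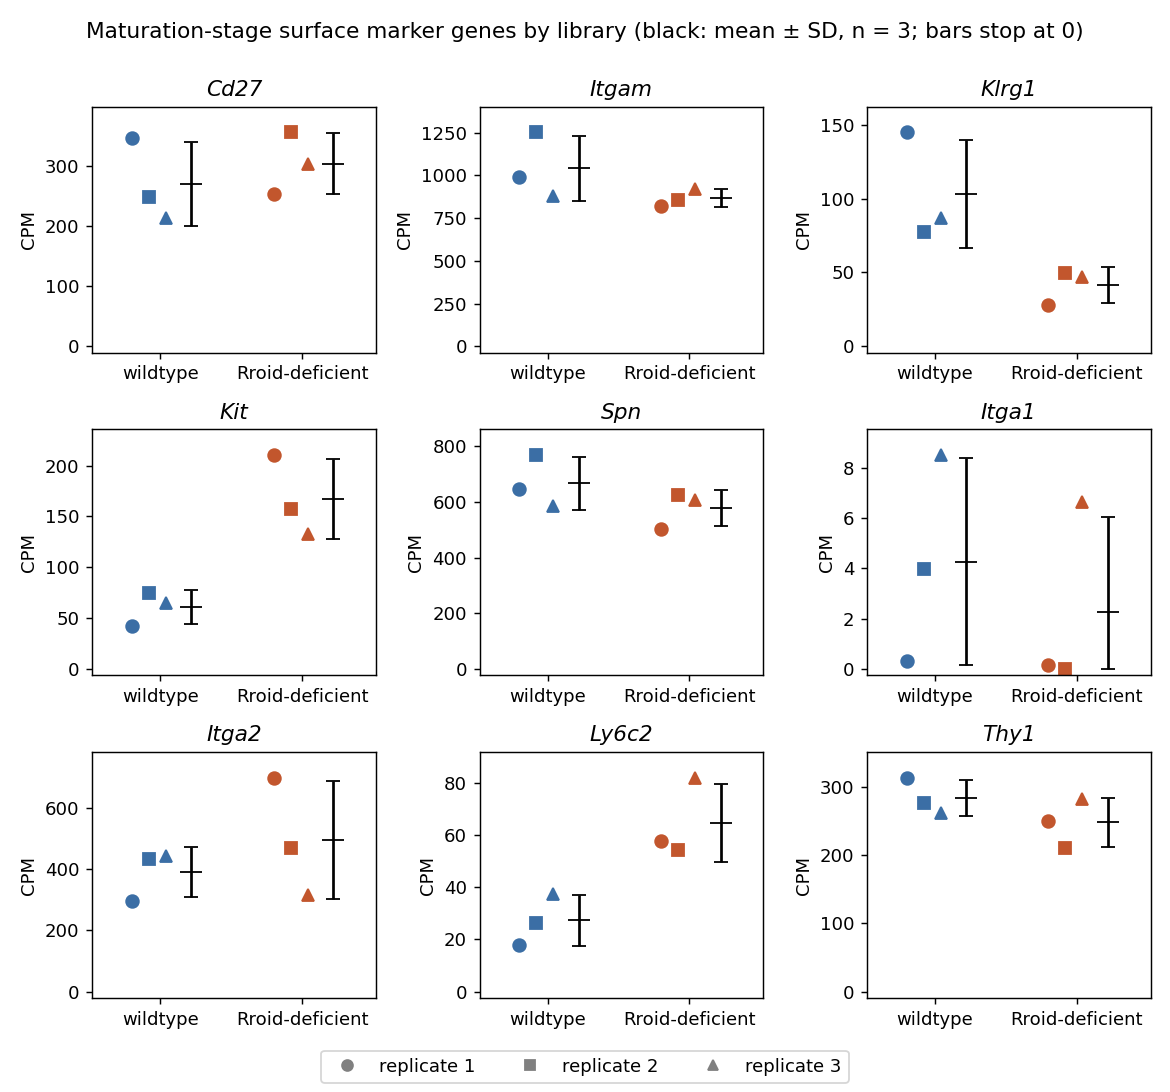
CPM of each of the 9 marker genes (vertical axis, linear) in the 3 wildtype (blue) and 3 Rroid-deficient (orange) libraries, with marker shapes for replicate numbers and the mean ± SD in black. Kit spans 42.2 to 75.1 CPM in wildtype and 133 to 210.3 in deficient libraries, and only Kit, Ly6c2 and Klrg1 show no overlap between genotypes.

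Kit encodes the receptor tyrosine kinase for stem cell factor, found on lymphoid precursors and on a part of the immature NK cells. Its level was 42.2, 75.1 and 64.8 CPM in wildtype replicates 1 to 3, and 210.3, 157 and 133 CPM in deficient replicates 1 to 3. The lowest deficient library was thus above the highest wildtype library. The means were 60.7 ± 16.8 and 167 ± 39.5 CPM (SD, n = 3), a 2.75-fold difference. On the log2 scale edgeR estimated a difference of 1.46 (SE 0.31, 95% interval 0.77 to 2.15), which did not pass (adjusted p = 0.543). By unadjusted p, Kit ranked 17 among the 11724 tested genes. DESeq2 called it on the same filtered genes (adjusted p = 0.0044), where 0.569% of genes were called. Without a filter on low counts it was also called by edgeR (adjusted p = 0.00486; 0.495% of genes called) and by DESeq2 (adjusted p = 0.00485; 0.715% of genes called). Without the replicates 1 of both genotypes, the Kit log2 fold change was 1.05 (edgeR adjusted p = 0.714).

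Mast cells, basophils and blood progenitors also carry KIT. Of 9 markers of these cells, Mcpt4, Fcer1a, Gata2 and Flt3 had no read in any library, which, for counting error alone, allows a level of up to 0.489 CPM. The list summed to at most 3.93 CPM in wildtype and 2.49 CPM in deficient libraries, and the part of such cells in the Kit values was not tested. Kit ligand, the gene Kitl, had no read either. In a list of 13 genes of signalling below KIT and KLRG1, 10 had values above 0 and 3 below, with a median log2 fold change of 0.26, and none passed. The phosphatase gene Ptpn6 (SHP-1) had 62.0 ± 17.3 CPM in wildtype and 113 ± 24.1 CPM in deficient libraries, higher without overlap. Pik3r1 had 631 ± 64.3 and 488 ± 56.9 CPM, lower without overlap. The Src family kinase gene Lyn had 74.7 ± 33.6 and 144 ± 55.7 CPM, with overlap.

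Klrg1 encodes an inhibitory lectin-like receptor that binds cadherins and appears late in NK cell maturation. It was at 145, 77.2 and 86.8 CPM in the wildtype libraries and at 27.7, 49.6 and 47.0 CPM in the deficient libraries. The genotypes did not overlap, and wildtype replicate 1 stood above both other wildtype libraries. The edgeR log2 fold change of -1.31 (SE 0.38, 95% interval -2.15 to -0.47) had an adjusted p of 0.895. DESeq2 gave an adjusted p of 0.11 on the filtered genes and 0.0884 without a filter, so Klrg1 passed in neither. Without both replicates 1 the log2 fold change was -0.77 (edgeR adjusted p = 0.76), 1.71 times smaller on the log2 scale. Its ligand genes Cdh1, Cdh2 and Cdh4 were below the filter. Cdh4 had no read, and Cdh1 had 61 of its 79 reads in deficient replicate 1.

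Ly6c2 encodes Ly6C, a GPI-anchored protein of many monocytes, memory T cells and mature NK cells. Its level was 18.0, 26.4 and 37.3 CPM in wildtype and 57.5, 54.3 and 81.9 CPM in deficient libraries. Again the genotypes did not overlap. The edgeR log2 fold change of 1.25 (SE 0.42, 95% interval 0.31 to 2.18) had an adjusted p of 0.895, and DESeq2 on the filtered genes gave an adjusted p of 0.258. Klrg1 and Ly6c2, both background markers of later maturation, thus lay on opposite sides.

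The neighbouring gene Ly6c1 is a close copy of Ly6c2, so reads can be divided between both with error. Of the 2737 distinct windows of 100 bases, the read length, in the annotated Ly6c2 transcripts, 159 (5.81%) also occur in Ly6c1. Ly6c1 itself had 2 reads over all 6 libraries, both in deficient libraries. No other member shared such a window with another gene of the count tables. Of 11 Ly6 relatives, Ly6e was the only one tested, with 741 ± 214 and 903 ± 203 CPM (log2 fold change 0.29, SE 0.24). Monocytes carry Ly6C and CD11b too. Of 13 markers of monocytes, macrophages and neutrophils, Cd14, S100a8, Mpo and Fcgr1 had no read. Csf1r was at 2.74 ± 1.40 CPM in wildtype and 1.79 ± 1.55 CPM in deficient libraries, Fn1 at 1.51 ± 0.730 and 1.15 ± 1.33 CPM, and Lyz2 had 12 reads in 1 wildtype and 55 in 1 deficient library. Most of that list's sum of 912 to 977 CPM in wildtype and 974 to 1358 CPM in deficient libraries was the chemokine receptor gene Ccr2 (931 ± 37.1 and 1108 ± 217 CPM). The part of these cells in the Ly6c2 and Itgam values was not tested.

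**Figure D2:**
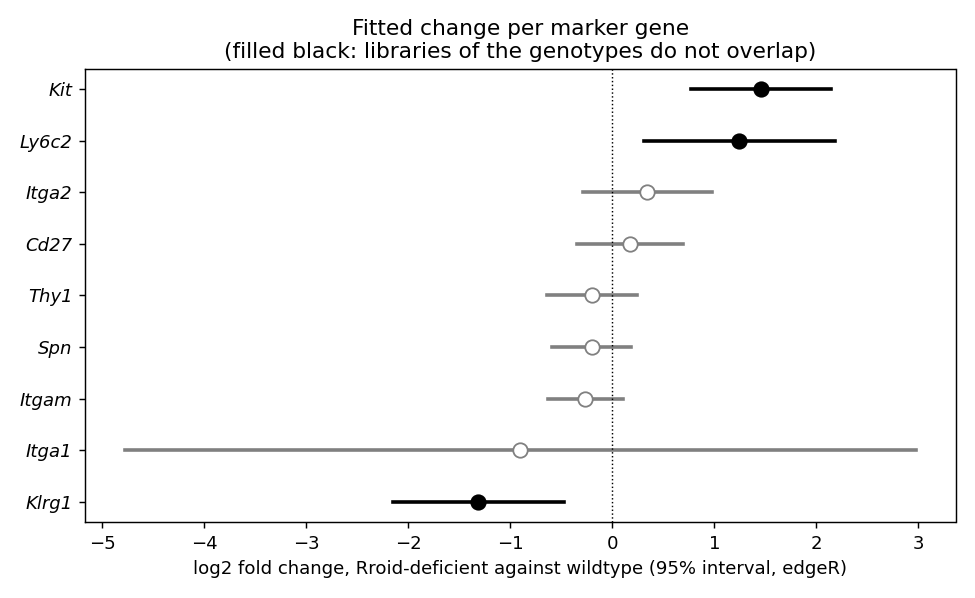
Log2 fold change of each marker gene, Rroid-deficient against wildtype (horizontal axis), with the 95% interval of the edgeR fit; filled black points are genes whose libraries did not overlap between genotypes. The intervals of Kit, Ly6c2 and Klrg1 lie off 0 before adjustment, and that of Itga1 runs from -4.78 to 2.98.

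Promoter sequences are shown for Kit and Ly6c2, which lay higher without overlap, and for Cd27 and Itgam, the genes of the sort, because Id2 restrains E proteins, which bind E-box letters. Each run is the 250 bases before a RefSeq start site in build GRCm38.p6, 5′ to 3′ on the gene's strand, with every CANNTG in capitals; 7 of the 9 members matched the table, and Klrg1 and Thy1 did not. The runs are at chr5:75574737-75574986 (plus strand), chr15:75111972-75112221 (minus), chr6:125237028-125237277 (minus) and chr7:128062390-128062639 (plus), while the counts were made on an older build.
Kit: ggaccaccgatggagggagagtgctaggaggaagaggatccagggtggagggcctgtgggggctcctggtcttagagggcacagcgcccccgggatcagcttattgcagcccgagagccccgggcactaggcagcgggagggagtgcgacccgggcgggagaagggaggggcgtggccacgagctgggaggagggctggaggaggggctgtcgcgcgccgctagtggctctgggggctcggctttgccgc
Ly6c2: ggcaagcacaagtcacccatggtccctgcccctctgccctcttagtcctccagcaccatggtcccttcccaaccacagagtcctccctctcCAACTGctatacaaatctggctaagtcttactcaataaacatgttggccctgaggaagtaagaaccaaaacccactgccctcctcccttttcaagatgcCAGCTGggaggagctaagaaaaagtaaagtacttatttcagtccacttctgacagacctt
Cd27: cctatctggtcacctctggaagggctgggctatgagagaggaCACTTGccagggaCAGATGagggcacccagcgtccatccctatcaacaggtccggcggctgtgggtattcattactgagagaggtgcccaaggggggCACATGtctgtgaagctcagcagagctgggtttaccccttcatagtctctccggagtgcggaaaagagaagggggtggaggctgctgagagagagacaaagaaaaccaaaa
Itgam: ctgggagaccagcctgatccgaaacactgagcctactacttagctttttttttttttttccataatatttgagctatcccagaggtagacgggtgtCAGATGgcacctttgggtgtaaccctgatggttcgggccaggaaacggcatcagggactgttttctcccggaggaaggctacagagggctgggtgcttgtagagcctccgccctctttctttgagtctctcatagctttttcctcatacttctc
CANNTG is its own reverse complement, so both strands were searched, and 66.2% of 32851 promoter windows of this length hold it. Kit had none in this window, nor at its other listed start, and Ly6c2 had 2, CAACTG and CAGCTG, at 159 and 60 bases before the start. CAGCTG, a form contained in CANNTG, is found in 13% of all windows, and Itga1 was the only other matched member with it. Cd27 had 3 CANNTG matches and Itgam and Spn 1 each, Itga2 had none, and no matched member had CAGGTG or CACCTG (17.2% of all windows). A match is a description of letters only.

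Cd27 and Itgam encode the proteins of the gate, CD27, a costimulatory receptor of the TNF receptor family, and CD11b, which pairs with CD18 to form the integrin Mac-1. Cd27 was at 348, 249 and 213 CPM in wildtype and 254, 356 and 303 CPM in deficient libraries, with overlap (log2 fold change 0.17, SE 0.23, 95% interval -0.35 to 0.70). Itgam was at 992, 1251 and 879 CPM in wildtype and 819, 858 and 922 CPM in deficient libraries, again with overlap (log2 fold change -0.26, SE 0.17, 95% interval -0.63 to 0.10). The intervals leave room for changes of either sign in both genes. Their edgeR adjusted p-values were 0.938 and 0.925.

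The ratio of both genes within a library does not depend on how libraries are scaled. Itgam reads were 2.85, 5.02 and 4.12 times those of Cd27 in the wildtype libraries, and 3.23, 2.41 and 3.04 times in the deficient libraries. Wildtype replicate 1 lay among the deficient libraries, and wildtype replicates 2 and 3 above all of them. The mean log2 ratio was 1.96 ± 0.41 in wildtype and 1.52 ± 0.22 in deficient libraries (SD, n = 3), a difference of -0.44. Left without wildtype replicate 1 the difference was -0.66, and without wildtype replicate 2 it was -0.26. The same ratio for Klrg1 and Kit, a pair chosen after its values were seen, was 3.43, 1.03 and 1.34 in wildtype and 0.132, 0.315 and 0.353 in deficient libraries. Klrg1 reads thus outnumbered Kit reads in each wildtype library, and Kit reads outnumbered Klrg1 reads in each deficient library. Each of these genes already lay apart between genotypes, in opposite directions, so the separation of their ratio was fixed and adds no support. These are ratios of reads, without regard to gene length. Per kilobase of exon, Klrg1 was above Kit in deficient replicates 2 (35.1 and 17.6 CPM per kilobase) and 3 (33.25 and 14.9), and below it only in deficient replicate 1 (19.6 and 23.6).

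**Figure D3:**
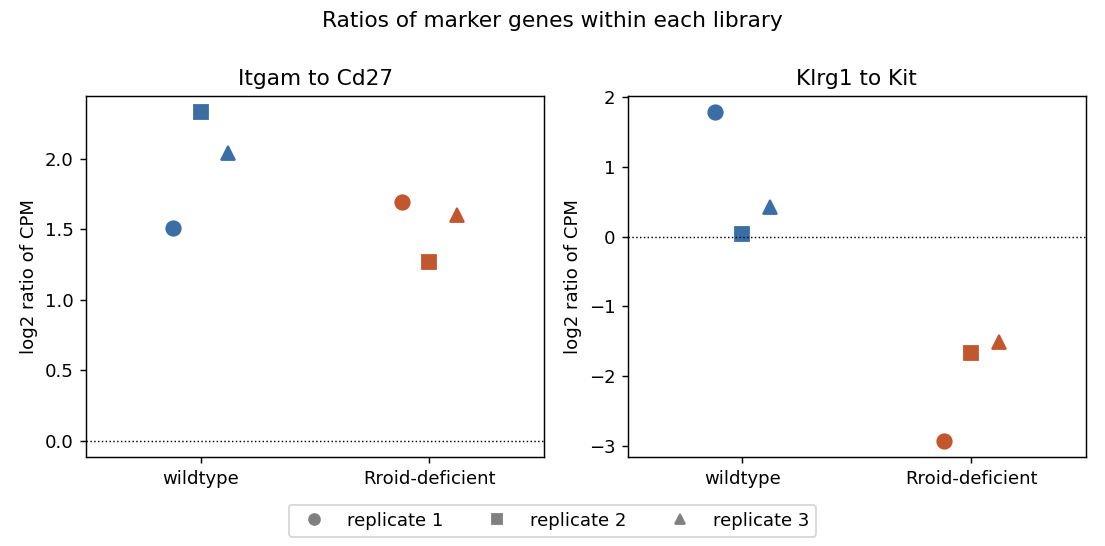
Log2 ratio of CPM within each library, not scaled by gene length (vertical axis), for Itgam to Cd27 (left) and Klrg1 to Kit (right), wildtype in blue and Rroid-deficient in orange. The Itgam to Cd27 ratio overlaps through wildtype replicate 1 at 1.51. The Klrg1 to Kit ratio, of genes that each already lay apart, is above 0 in all wildtype and below 0 in all deficient libraries.

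Spn encodes CD43, a heavily glycosylated sialomucin that rises as NK cells mature, and Thy1 encodes the GPI-anchored protein CD90. Spn was at 647, 768 and 584 CPM in wildtype and 503, 624 and 608 CPM in deficient libraries (log2 fold change -0.20, SE 0.17, 95% interval -0.59 to 0.18). Thy1 was at 314, 276 and 263 CPM in wildtype and 250.2, 211 and 283 CPM in deficient libraries (log2 fold change -0.20, SE 0.20, 95% interval -0.64 to 0.25). Both overlapped between genotypes, with an edgeR adjusted p of 0.927 for Spn and 0.936 for Thy1. Of the proteins that link CD43 to actin, the ezrin gene Ezr had 306 ± 50.6 and 237 ± 20.9 CPM, with overlap.

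Thy1 is also a T cell gene, and T cell markers differed in level between these libraries. Their sum was 171 to 266 CPM in wildtype and 346 to 451 CPM in deficient libraries, without overlap. The largest means in it were those of the receptor constant genes Trbc1 (139 ± 38.3 and 162 ± 26.8 CPM, with overlap) and Trbc2 (51.4 ± 10.4 and 111 ± 17.3 CPM, without overlap). Cd3g had 6.22 ± 1.91 and 63.4 ± 7.44 CPM, and Cd3d had 6.79 ± 1.85 and 49.2 ± 22.4 CPM. Of 11 markers, 5 were tested and all 5 had a positive log2 fold change, led by Cd3g and Cd3d, while Cd6 and Cd8a had no read and Cd3e had 3 reads in all. Cd4 had 57 reads and Cd8b1 37, all of them in wildtype replicate 1. Thy1 lay lower in mean in the deficient libraries, but with overlap between genotypes. The part of T cell transcripts in any member's value was not tested.

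Itga1 and Itga2 encode CD49a and CD49b, collagen-binding integrin chains that both pair with the beta chain Itgb1 and are used to set ILC1 apart from NK cells. Itga2 was at 297, 433 and 442 CPM in wildtype and 700, 471 and 316 CPM in deficient libraries. The highest deficient library was 2.21 times the lowest, and deficient replicate 1 was the highest of all 6. The edgeR log2 fold change of 0.34 (SE 0.28, 95% interval -0.29 to 0.97) had an adjusted p of 0.925, and it was 0.0045 without deficient replicate 1. Itga1 had counts of 2, 37 and 54 in wildtype and 1, 0 and 48 in deficient libraries, at most 8.49 CPM. Library 3 of each genotype held most of its reads, and the interval of -4.78 to 2.98 around its log2 fold change of -0.90 allows large changes of either sign. Per kilobase of exon, every library had at least 41.7 CPM of Itga2 and at most 0.457 CPM of Itga1.

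Among the integrin partners, Itgb2, the CD18 chain that pairs with CD11b, had means of 1178 ± 175 CPM in wildtype and 942 ± 32.6 CPM in deficient cells, a log2 fold change of -0.32 (SE 0.15, adjusted p = 0.915 in edgeR). Itgb1, named after its values were seen, was at 759 ± 54.8 and 627 ± 60.1 CPM (log2 fold change -0.28, SE 0.16). Both lay lower in every deficient library without passing. Of 15 partners and ligands of the marker proteins, 10 were tested, 3 above 0 and 7 below, with a median log2 fold change of -0.18; Cd70, Kitl and Cdh4 had no read. Of 13 related integrin alpha genes, 9 were tested, 4 positive and 5 negative, with a median of -0.01. Itgad, a leukocyte alpha chain that also pairs with CD18, was at 16.9 ± 10.8 and 43.1 ± 6.66 CPM without overlap (log2 fold change 1.34, SE 0.56). Itga3 was at 6.10 ± 4.22 and 1.14 ± 1.23 CPM, with overlap. None of these genes passed.

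Levels between genes were compared as CPM per kilobase of annotated exon. In wildtype the order was Itgam (207 ± 37.9), Spn (142 ± 20.003), Cd27 (116 ± 29.9), Thy1 (94.9 ± 8.84), Klrg1 (72.8 ± 25.9), Itga2 (54.8 ± 11.4), Ly6c2 (9.94 ± 3.53), Kit (6.81 ± 1.88) and Itga1 (0.229 ± 0.221). In this order the neighbours from Spn to Itga2, and Ly6c2 with Kit, overlapped between libraries, and Itgam, the step from Itga2 to Ly6c2 and Itga1 stood apart. In deficient libraries Itgam again led at 172 ± 10.3 CPM per kilobase, and Cd27 (131 ± 22.05) and Spn (124 ± 14.002) followed, overlapping each other. Thy1 (82.8 ± 12.1) and Itga2 (69.5 ± 27.1) came next, also with overlap, and Itga1 was last (0.122 ± 0.204). Klrg1 (29.3 ± 8.47), Ly6c2 (23.6 ± 5.50) and Kit (18.7 ± 4.43) lay next to each other between Itga2 and Itga1, each overlapping its neighbour in the order. In wildtype the lowest Klrg1 library, at 54.6 CPM per kilobase, was above the highest Ly6c2 library, at 13.6. Exon lengths come from a GRCm38 annotation and not from the build used for counting.

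Other genes that change along NK maturation were taken from lists without the 9 members. Of 16 genes of less mature NK cells, 14 were tested, 10 above 0 and 4 below, with a median log2 fold change of 0.27. In 6 of these 14 the deficient libraries were all higher and in 1 all lower, where 6.03% and 6.33% of all tested genes were. The lower gene was Cd226 (41.4 ± 3.58 CPM in wildtype and 17.7 ± 12.3 CPM in deficient libraries). The smallest p-values in the list were those of Myb, a transcription factor of progenitors (54.3 ± 20.4 and 144 ± 27.0 CPM), and the chemokine gene Xcl1 (230.3 ± 17.3 and 375 ± 0.823 CPM). All 16 genes of more mature NK cells were tested, 5 positive and 11 negative, with a median of -0.30, and libraries did not overlap in 2 higher and 5 lower genes. The higher genes were Zeb2 (541 ± 52.5 and 662 ± 27.6 CPM) and S100a6 (79.8 ± 2.87 and 98.8 ± 5.62 CPM). Gzma (granzyme A) and Prdm1 (Blimp-1) had the smallest p-values, with log2 fold changes of -0.81 and -0.78. No gene of either list passed over all tested genes, and both lists were drawn up with results of these libraries known, so neither is independent support.

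ILC1 markers, 10 of 13 tested, had 8 positive and 2 negative log2 fold changes and a median of 0.71; the list shares Xcl1 and Il7r with the less mature genes. Their summed CPM were 358 to 467 in wildtype and 651 to 726 in deficient libraries, with Xcl1 the largest part at means of 230 and 375 CPM. Xcl1 and Il21r, a cytokine receptor gene (4.74 ± 2.31 and 28.6 ± 3.99 CPM), had the smallest p-values. The 2 negative genes were Cxcr6 (7.43 ± 7.35 and 1.34 ± 1.11 CPM) and Rora (20.7 ± 16.7 and 14.1 ± 19.0 CPM), both with overlap. Itga1, the gene of the ILC1 marker CD49a, had at most 8.49 CPM in wildtype and 6.64 CPM in deficient libraries, with overlap. NK cell markers had 2 positive and 8 negative values with a median of -0.28 and the smallest p-values for Klrb1c (1001 ± 48.9 and 796 ± 90.3 CPM) and Klrk1 (958 ± 165 and 747 ± 25.7 CPM), both without overlap. Markers of ILC2 and ILC3 summed to 55.3 to 111 CPM in wildtype and 73.1 to 111 in deficient libraries, with Il22 at 0 and the smallest p-values for Arg1 and Icos. B cell markers reached at most 7.94 CPM in sum, with Cd79a the only one tested and Pax5 and Fcmr at 0. Dendritic cell markers summed to 18.1 to 38.3 CPM, with Xcr1 and Clec9a at 0. Zbtb46 had the highest mean of that list in both genotypes (17.4 ± 9.60 and 12.8 ± 8.81 CPM), and Cd74 (2.13 ± 1.98 and 10.6 ± 7.42 CPM) and H2-Ab1 (1.99 ± 1.84 and 0.738 ± 1.28 CPM) had the smallest p-values. Platelet and red cell markers summed to 9.02 to 17.8 CPM in wildtype and 1.14 to 8.02 CPM in deficient libraries, with the smallest p-value for Alas2 and no read of Pf4 or Ppbp. The part of these other cell types in the members' values was not tested.

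**Figure D4:**
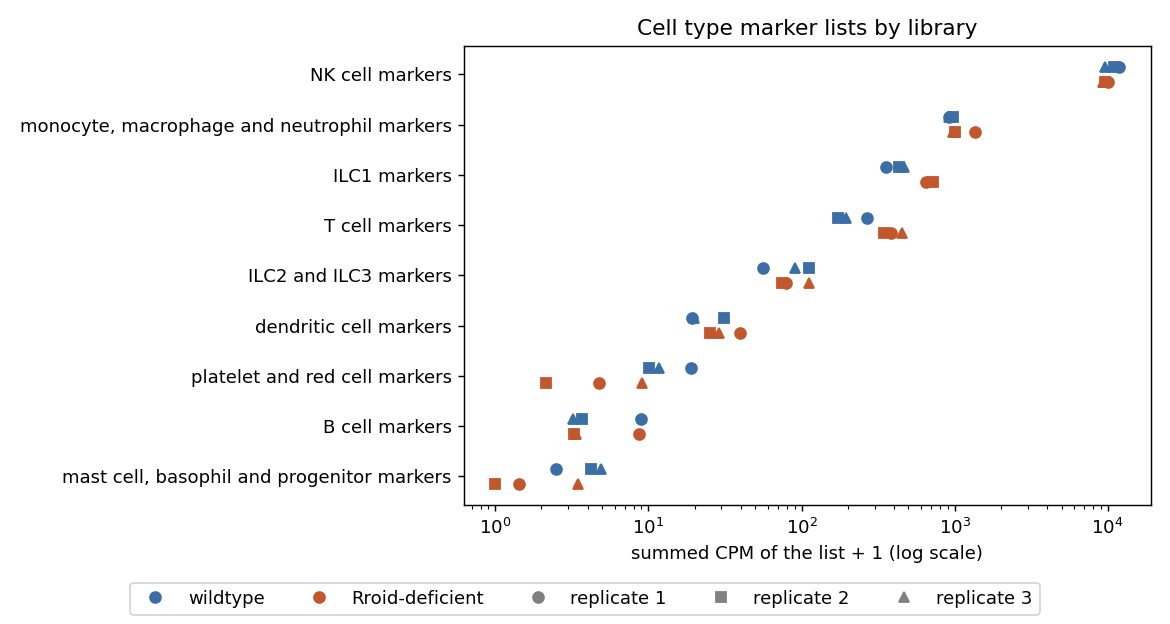
Summed CPM plus 1 of each cell type marker list (horizontal axis, log scale) in the 3 wildtype (blue) and 3 Rroid-deficient (orange) libraries. T cell and ILC1 lists lie higher in all deficient libraries, and the B cell, platelet and mast cell lists reach at most 17.8 CPM in any library.

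For the 8 members at a mean of 20 CPM or more, the genes of most similar pattern were taken as those with the smallest root mean square difference of centred log2 CPM over the 6 libraries, among 5705 genes. For Kit these were Zfyve16 (0.12) and Kin (0.22), for Klrg1 Clns1a (0.17) and Cdkn2aip (0.18), and for Ly6c2 Sidt1 (0.22) and Pik3c3 (0.24). The gate genes were nearest to Ftl1 and Kctd11 (both 0.07) for Cd27 and to Ddx39 (0.05) and H2-T23 (0.07) for Itgam. Spn was nearest to Samd9l and Psmb2 (both 0.09), Itga2 to Crtc3 (0.05) and Marc2 (0.06), and Thy1 to Ostf1 and Atp5d (both 0.05). Zfyve16, the nearest to Kit, had 27.1 CPM in wildtype and 78.3 CPM in deficient libraries. These genes were chosen by their pattern over the same 6 libraries. A difference between genotypes like that of the member was thus fixed by the choice and adds no support.

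**Figure D5:**
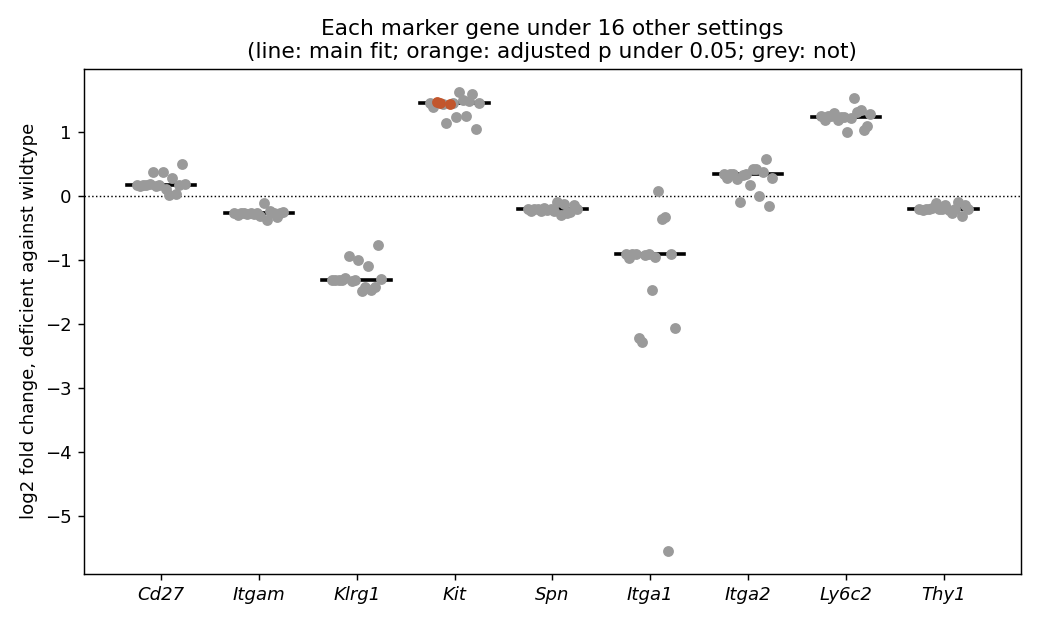
Log2 fold change of each marker gene (vertical axis) in the reported fit (black line) and under 16 other settings (points), orange where the adjusted p was under 0.05. Kit has 3 orange points and keeps values from 1.05 to 1.64, and Itga1 and Itga2 are the genes with points on both sides of 0.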

How the data were processed

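Per the labels' protocols, RNA was amplified (Ovation RNA-Seq System V2), libraries were built with KAPA reagents, and reads were single, of 100 bases. The authors deposited raw counts of reads per Ensembl gene, with 5 closing rows that name no gene and held 80.0% to 84.4% of listed reads; these were left out. The submitters' processing notes name Trimmomatic 0.33, TopHat2 2.1.0, HTSeq 0.6.1, DESeq2 and builds NCBIM37 and mm9; whether strand was used is not given in these sources.

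edgeR 4.0.16 (R 4.3.3) was run with TMM, filterByExpr, a quasi-likelihood fit on genotype over all 6 libraries and Benjamini-Hochberg adjustment at 0.05. CPM use the fit's effective library sizes. Alternatives used RLE, library sizes alone, DESeq2 1.42.0, limma 3.58.1 voom, other filters and thresholds, left-out libraries and a replicate block. Every pair of libraries differed beyond sampling noise (chi-square divided by its degrees of freedom 19.2 or more). Symbols matched 32919 genes. Figures used matplotlib 3.10.9.

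Members and lists were chosen with earlier results of these data known. Named were all members, Id2, per list the called genes or else the 2 of smallest p, the 2 nearest patterns per member, and Ly6c1. Genes outside this rule were named after their values were seen. Examples are Eomes, Ncr1, Klrd1, Cdh1, Itgb1, Lyz2, Fn1, Zbtb46, Zeb2, S100a6, Cd226, Cd4, Cd8b1, Trbc1, Trbc2, Cxcr6, Rora, Pik3r1 and those without reads. Some list members are not reported here.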

Additional observations from a re-analysis of the deposited data

How the results depend on the processing

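Of 144 refitted log2 fold changes of the 9 marker genes (16 settings each), 141 kept their direction. Itga1 changed sign without wildtype replicate 3 (0.075; -5.54 to 0.075 when 1 library was left out), and Itga2 with voom quality weights (-0.084) and without the replicates 1 of both genotypes (-0.16); the cause was not tested. Kit was the only member called under any of these settings: 1 member was called by DESeq2 on all genes, 1 by DESeq2 on filtered genes and 1 by edgeR without a filter, against 0 in the reported edgeR fit, where 3 members had an unadjusted p under 0.05. Over all settings the adjusted p of Kit ran from 0.0044 to 0.999, that of Klrg1 from 0.0884 to 0.999 and that of Ly6c2 from 0.127 to 0.999. Over all tested genes, 2 were called in the reported fit, 88 by DESeq2 on all genes, 65 by DESeq2 on filtered genes, 98 by edgeR without a filter, 1 by limma-voom and 8 with quality weights. The count was 0 at a threshold of 0.01, 0 without both replicates 1 (767 genes at an unadjusted p under 0.05), and 0 in each fit with 1 library left out (508 to 966). The Itgam to Cd27 difference ran from -0.66 to -0.26 when 1 library was left out and was -0.75 without both replicates 1. The overlap count without both replicates 1 was chosen after seeing the data. With the replicate number as a block, edgeR called 0 genes (455 at an unadjusted p under 0.05) and 0 members. Same-numbered libraries did not deviate together (correlations of deviations across genes of 0.01, -0.02 and 0.04), and libraries did not each correlate best with their own number. At these depths a count of 0 allows, for counting error alone, up to 0.489 CPM, and the wide interval of Itga1 rests on 142 reads in all.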
